A study of Mus musculus with 9 samples.

Results

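Knl1, Bub1b, Espl1, Zwilch, Cep192, Haus6 and Lmnb1 are 7 genes of the kinetochore, the spindle checkpoint, the centrosome and spindle and the nuclear lamina, and each is also a source of circular RNAs (circRNAs), in which the end of an exon is joined to the start of the same or an earlier exon. All circRNAs that the deposited table assigns to these genes were taken, which gave 67 of the 37751 circRNAs listed and 7 of the 6943 host genes. The 67 were 10 of Knl1, 9 of Bub1b, 5 of Espl1, 12 of Zwilch, 11 of Cep192, 11 of Haus6 and 9 of Lmnb1. The genes were chosen with their reads at day 3 and day 6 against day 0 already known, so values in those comparisons describe the selection and are given without p-values. Where such a value is said below to be called, or past a threshold, this describes the selection too and is not evidence. The comparison of day 6 with day 3 uses the same day 3 and day 6 libraries, so its p-values are not free of that choice.

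KNL1 is a scaffold of the outer kinetochore, the protein layer by which chromosomes attach to spindle microtubules. ZWILCH belongs to the RZZ complex on unattached kinetochores, and BUBR1, the product of Bub1b, is part of the complex that holds back anaphase until attachment is complete. Separase, encoded by Espl1, then cuts cohesin so that sister chromatids part. CEP192 organises the material around the centrosome, HAUS6 is a subunit of augmin, which starts new microtubules along those of the spindle, and lamin B1, from Lmnb1, is a filament of the nuclear lamina that is taken apart at mitosis. Myoblasts leave the cell cycle when they differentiate into muscle cells.

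The cells were C2C12, an established line of mouse skeletal muscle myoblasts that can be made to differentiate by withdrawing serum. The groups were day 0, dividing cells that had not reached confluence and were grown with fetal bovine serum, and days 3 and 6 after the medium of confluent cells was changed to one with less serum, from horse. There were 3 libraries per day and 9 in all, made from total RNA after a bead clean-up and a DNase step. Nothing in the labels says that the 3 libraries of a day are separate cultures, and p-values therefore cover only how these libraries vary, a spread that may be technical.

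The sequences joined at the back-splice are shown for the circRNAs on which the values below turn, because these bases tell circles of the same gene apart. In each, the 20 lower-case bases end the last exon of the circle and the 20 capitals begin its first exon, 5′ to 3′, on GRCm38. Exon numbers count along the annotated transcript with the longest coding sequence.
Knl1 exons 9 to 12, chr2:119076936-119086650, plus strand: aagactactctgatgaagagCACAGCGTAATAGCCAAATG
Knl1 exons 9 to 11, chr2:119076936-119081625, plus strand: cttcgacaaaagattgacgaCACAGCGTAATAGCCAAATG
Knl1 exons 8 to 11, chr2:119076232-119081625, plus strand: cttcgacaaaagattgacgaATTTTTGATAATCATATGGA
Bub1b exons 17 to 19, chr2:118631759-118635277, plus strand: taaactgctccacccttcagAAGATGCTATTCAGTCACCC
Bub1b exons 17 to 21, chr2:118631759-118638575, plus strand: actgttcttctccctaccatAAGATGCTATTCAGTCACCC
Bub1b exons 16 to 17, chr2:118630945-118631899, plus strand: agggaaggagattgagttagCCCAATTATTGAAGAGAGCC
Espl1 exons 5 to 7, chr15:102299803-102304145, plus strand: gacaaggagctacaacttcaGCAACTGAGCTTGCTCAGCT
Zwilch exons 11 to 14, chr9:64149399-64153650, minus strand: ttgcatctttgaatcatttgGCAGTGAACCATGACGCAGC
Zwilch exons 12 to 17, chr9:64144080-64152964, minus strand: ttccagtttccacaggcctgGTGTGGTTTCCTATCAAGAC
Haus6 exons 5 to 9, chr4:86595363-86602963, minus strand: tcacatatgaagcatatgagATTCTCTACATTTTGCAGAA
Haus6 exons 5 to 8, chr4:86599259-86602963, minus strand: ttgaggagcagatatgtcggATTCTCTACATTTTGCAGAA
The first pair of Knl1 circles began at the same base, and Knl1 exons 9 to 11 and 8 to 11 ended at the same base. Bub1b exons 17 to 19 and 17 to 21 likewise shared the start, as did both Haus6 circles. Of the 67 circRNAs, 50 shared a start or an end with another of the set.

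Libraries held 208787 to 443955 back-splice reads. The 7 hosts took 0.566 ± 0.0349% of the reads at day 0, 0.143 ± 0.0108% at day 3 and 0.0741 ± 0.0201% at day 6 (mean ± SD of 3 libraries). Summed over hosts that mark dividing cells, levels were 7517 to 9473 CPM (back-splice reads relative to the TMM-adjusted total of the library) at day 0, 1806 to 2253 at day 3 and 806 to 1188 at day 6, and 12 of 12, 9 and 7 of these hosts had reads on those days. Summed over 16 muscle hosts, of which 11 were listed, levels were 319 to 525 CPM at day 0, 10353 to 11997 at day 3 and 12425 to 16357 at day 6. Reads were listed for 4, 10 and 9 of these hosts on those days. Most of the later sums came from Ttn, with 7537 ± 753 CPM at day 3 and 9202 ± 1468 at day 6. Of 9 adipocyte or osteoblast hosts 2 were listed, with summed levels of 330 to 678, 495 to 878 and 384 to 640 CPM on those days. In RNA from whole cultures, fewer dividing cells and less RNA in each of them cannot be told apart. The table holds no linear reads, so a lower circRNA level and a lower transcription of the host cannot be told apart either. Zeros were frequent: where the other 2 libraries of a day gave an expectation of 10 to 20 reads, 52.4% of circRNA values and 35.9% of host values were 0, and no value of 1 read was listed, as the smallest above 0 was 2.

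**Figure D1:**
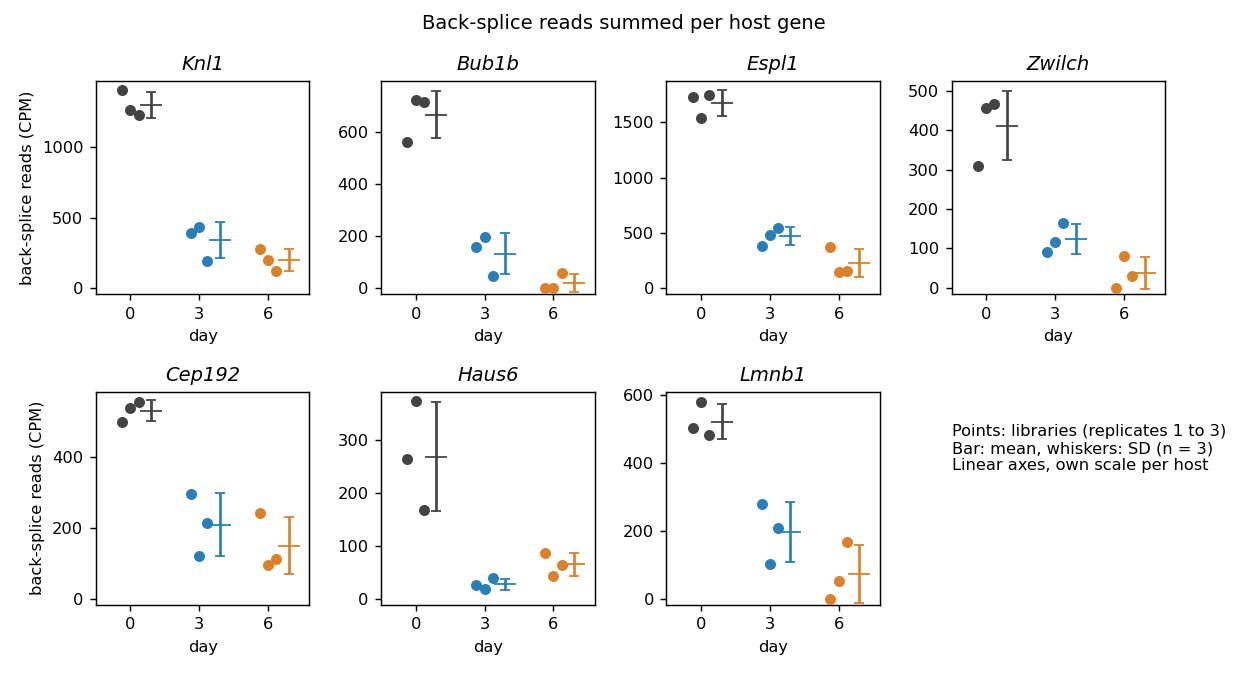
Back-splice reads summed per host and library, in CPM of the TMM-adjusted totals, at days 0, 3 and 6. Points are the 3 libraries of a day and bars the means. For each of the 7 hosts all day 0 points lie above all day 3 and day 6 points, and Haus6 is the host whose day 6 points lie above its day 3 points.

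Each of the 7 hosts had all 3 day 3 libraries and all 3 day 6 libraries below all 3 day 0 libraries. Among the 4135 hosts tested, 10.4% were lower without overlap at day 3 and 12.7% at day 6. With edgeR's quasi-likelihood test, fitted on all hosts with Benjamini-Hochberg adjusted p-values and a threshold of 0.05, 4 of the 7 were called lower at day 3 (Knl1, Bub1b, Espl1 and Haus6), against a background of 0.895% of all hosts. At day 6 it was 6 of the 7, all but Haus6, against 1.79%. As the hosts were chosen on these comparisons, nothing is read from the counts. The median log2 fold change of the 7 was -1.84 at day 3 and -2.77 at day 6 against day 0, and over all hosts tested it was -0.02 and -0.13. Between day 6 and day 3, 0 of the 7 were called, 6 had a fold change below 0 and the median was -1.08. Of all hosts 0.0726% were called in that comparison (3 of 4135, with 246 at an unadjusted p under 0.05), and the median over all hosts was -0.06. DESeq2 called 19 hosts there and 0 of these 7.

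**Figure D2:**
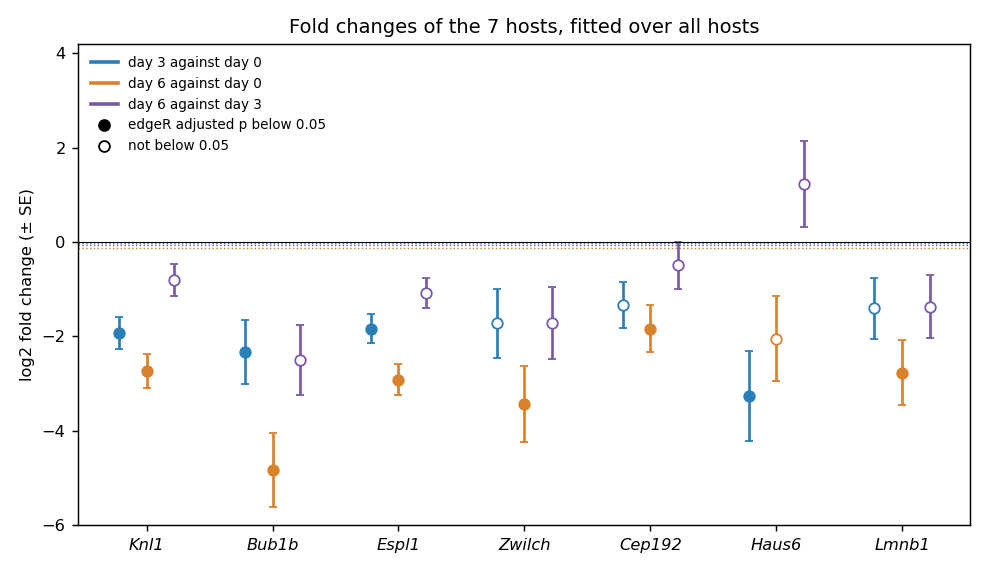
Log2 fold changes of the 7 hosts with approximate standard errors, from the edgeR fit on all hosts. Filled points are past the threshold and open points are not, and dotted lines are the medians of all hosts. All points against day 0 lie below 0, and Haus6 alone among these 7 hosts has a point above 0, in day 6 against day 3.

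Knl1 (chr2:119047119-119105501, plus strand) had 472, 322 and 324 back-splice reads in the day 0 libraries, 121, 123 and 66 at day 3 and 57, 46 and 50 at day 6. The 3 day 0 libraries were far above the rest, and the ranges of CPM at days 3 and 6 overlapped. Its level averaged 1302 ± 92.9 CPM at day 0, 340 ± 127 at day 3 and 198 ± 79.1 at day 6 (mean ± SD of 3 libraries). Its log2 fold changes against day 0 were -1.94 ± 0.34 (SE) at day 3 and -2.74 ± 0.35 at day 6, both past the threshold. Day 6 differed from day 3 by -0.80 ± 0.34 (edgeR adjusted p = 0.736).

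Most Knl1 reads came from the circle of exons 9 to 12, a spliced length of 374 nt, with 369, 232 and 239 reads at day 0, 56, 93 and 0 at day 3 and 36, 22 and 12 at day 6. The 0 in day 3 replicate 3 stood beside 30 reads of exons 9 to 11 and 23 of exons 8 to 11 in the same library. Its means were 999 ± 135 CPM, 169 ± 163 and 93.1 ± 66.7 at days 0, 3 and 6. Fold changes of -2.57 ± 0.63 at day 3 and -3.44 ± 0.66 at day 6 were past the threshold, and -0.87 ± 0.62 between day 6 and day 3 was not (edgeR adjusted p = 0.860). Without day 3 replicate 2 the day 3 value was -3.47 and the value for day 6 against day 3 was 0.01, and without day 6 replicate 1 the value for day 6 against day 0 was -4.10. The day 3 call was lost when the minimum count was raised to 10, when only the 2 groups were fitted and in DESeq2, and the day 6 call was not made with DESeq2.

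The shorter Knl1 circle, exons 9 to 11, was listed in all 9 libraries, with 49, 71 and 68 reads at day 0, 45, 15 and 30 at day 3 and 16, 8 and 38 at day 6. Its means were 232 ± 68.8, 95.0 ± 46.3 and 64.8 ± 29.4 CPM, with no overlap between day 0 and the later days, and no call was made in any comparison. The circle of exons 8 to 11 had 54, 12 and 0 reads at day 0, 16, 0 and 23 at day 3 and 0 in each day 6 library. Exons 9 to 12 gave 74.7 ± 3.16% of Knl1 reads at day 0, 40.6 ± 38.1% at day 3 and 45.0 ± 19.7% at day 6. The 3 day 6 shares (63.2%, 47.8% and 24%) all lay below the 3 day 0 shares (78.2%, 72.0% and 73.8%), a difference of -29.7 percentage points. At day 3 the shares were 46.3%, 75.6% and 0%, of which the second lay within the day 0 range and the others below it. Shares against day 0 are given without a test, as each host was chosen for high day 0 reads and the circle for its reads over all libraries. Between day 6 and day 3 the Knl1 share differed by 4.36 points (two-sided exact permutation p = 0.9, adjusted p = 1 over the 13 share tests run, where 0.1 is the smallest that 3 libraries against 3 allow).

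**Figure D3:**
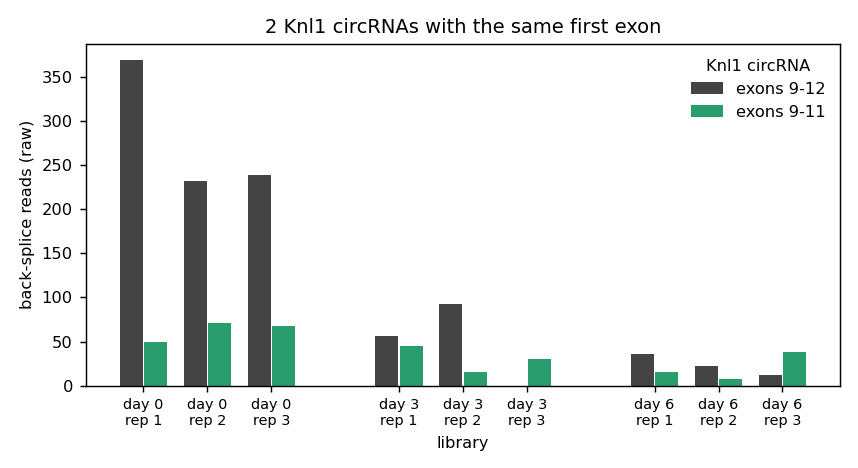
Raw back-splice reads of the Knl1 circles of exons 9 to 12 and of exons 9 to 11 in each library, not scaled to library totals. The longer circle is the higher one in each day 0 library, while at days 3 and 6 the order differs between libraries.

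Another pair of Knl1 circRNAs, with 12 reads in all, began at position 119076941 of chromosome 2, 5 bases inside the annotated start of exon 9. The bases left out are CACAG, which end in AG, as acceptor sites do. A Knl1 circRNA deposited as intronic (chr2:119076936-119078351) began at the same exon 9 start and had 7 reads, all in day 0 replicate 3.

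Zwilch (chr9:64137144-64173104, minus strand) had 104, 116 and 123 reads at day 0, 28, 33 and 56 at day 3 and 0, 19 and 13 at day 6. Its mean level was 411 ± 87.9 CPM at day 0, 124 ± 37.7 at day 3 and 37.5 ± 41.4 at day 6 (mean ± SD of 3 libraries), and the 3 days did not overlap. The day 6 fold change of -3.44 ± 0.80 against day 0 was past the threshold, while -1.72 ± 0.73 for day 3 against day 0 and -1.71 ± 0.76 for day 6 against day 3 were not (edgeR adjusted p = 0.736 between day 6 and day 3). Without day 6 replicate 2 the day 6 value was -4.52.

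The Zwilch reads were spread over more circles than those of the other hosts, 12 in all, of which 4 passed the filter on low counts (filterByExpr of edgeR, minimum count 5). The circle of exons 11 to 14 had 46, 26 and 46 reads at day 0, 15 reads in day 3 replicate 2 and none in the other day 3 or day 6 libraries. Exons 6 to 7 had 19, 22 and 15 reads at day 0, 0, 15 and 9 at day 3 and 0 in each day 6 library, and exons 6 to 10 had 39, 8 and 16 reads at day 0 and 0 in each later library. None of the 3 was past the threshold in any comparison. The circle of exons 12 to 17 was listed mostly at the later days, with 0, 0 and 3 reads at day 0, 21, 0 and 38 at day 3 and 0, 15 and 13 at day 6. Its means of 3.98 ± 6.89, 59.6 ± 56.1 and 30.5 ± 30.4 CPM overlapped between days, and it was not called in any comparison.

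Bub1b (chr2:118598211-118641591, plus strand) had 189, 184 and 189 reads at day 0, 48, 56 and 15 at day 3, and 0, 0 and 25 at day 6. Day 6 replicate 3 held all 25 of the day 6 reads, and it was also the library with the most reads in total. Mean levels were 669 ± 91.3 CPM, 132 ± 79.0 and 19.7 ± 34.1 at days 0, 3 and 6 (SD, n = 3 each), so that day 6 stood at 2.94% of day 0. Fold changes of -2.34 ± 0.68 at day 3 and -4.83 ± 0.79 at day 6 against day 0 were past the threshold. The value for day 6 against day 3, -2.49 ± 0.74, was not (edgeR adjusted p = 0.699). The day 3 call was lost without day 0 replicate 2 (-2.29), day 0 replicate 3 (-2.27) or day 3 replicate 3 (-1.91), with a minimum count of 10 and with DESeq2. Without day 6 replicate 3 both remaining day 6 libraries were at 0 and day 6 against day 3 was called, as it was with no filter (-2.51) and with the replicate number as a block (-2.91).

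The Bub1b circle of exons 17 to 19 (392 nt) had 86, 78 and 70 reads at day 0, 24, 39 and 15 at day 3 and 0 in each day 6 library. The 3 days did not overlap, and the means were 283 ± 16.5 CPM at day 0, 85.9 ± 47.0 at day 3 and 0 at day 6. Because listed zeros were frequent where reads were expected, they do not bound the level, and no fold is given where all libraries of a day were at 0. The fall between day 3 and day 6 passed the threshold (edgeR adjusted p = 0.00937), the 1 member circRNA called in that comparison, in which 0.0613% of the 8153 circRNAs tested were called. That call rested on day 6 values that were all 0, and it was not made in a fit of only the 2 groups.

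A longer circle from the same start, exons 17 to 21 (710 nt), had 46, 65 and 14 reads at day 0 and 0 in all 6 later libraries, and was not past the threshold. Exons 16 to 17 had 25, 33 and 63 reads at day 0, 24, 12 and 0 at day 3 and 0, 0 and 12 at day 6, also not called. The share of Bub1b reads on exons 17 to 19 was 73.2 ± 25.2% at day 3 and 41.6 ± 4.28% at day 0, higher in each of the 3 day 3 libraries than in any at day 0 (50%, 69.6% and 100%, against 45.5%, 42.4% and 37.0%). The difference was 31.6 percentage points, and is a description, as Bub1b was chosen for its high day 0 reads. The 100% in day 3 replicate 3 rested on 15 reads.

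Espl1 (chr15:102296266-102324357, plus strand) had 580, 390 and 461 reads at day 0, 117, 136 and 185 at day 3 and 77, 33 and 66 at day 6. The 3 days did not overlap in CPM. Mean levels were 1672 ± 118 CPM at day 0, 468 ± 82.8 at day 3 and 224 ± 130 at day 6 (mean ± SD of 3 libraries). Fold changes were -1.84 ± 0.31 at day 3 and -2.92 ± 0.33 at day 6 against day 0, both past the threshold. Day 6 differed from day 3 by -1.08 ± 0.32 (edgeR adjusted p = 0.699), and without day 6 replicate 1 by -1.64, which was past the threshold (adjusted p = 0.00617). The library left out there had the highest Espl1 level of day 6, 373 CPM against 142 and 156 in replicates 2 and 3.

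Nearly all Espl1 reads came from a single circle of exons 5 to 7 (443 nt), with 565, 390 and 453 reads at day 0, 117, 129 and 185 at day 3 and 77, 33 and 66 at day 6. It made up 98.6 ± 1.32% of the host's reads at day 0, 98.3 ± 2.97% at day 3 and 100% in each day 6 library. The other 4 Espl1 circRNAs had 6 to 9 reads each, every one in a single library. Fold changes of the circle were -1.89 ± 0.33 at day 3 and -3.0 ± 0.35 at day 6 against day 0, and these calls were kept under every alternative tried.

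Cep192 (chr18:67800107-67885170, plus strand) had 167, 137 and 146 reads at day 0, 91, 34 and 72 at day 3 and 50, 22 and 47 at day 6. Day 0 stood above both later days, which overlapped each other. Its mean level was 531 ± 29.4 CPM at day 0, 209 ± 88.4 at day 3 and 149 ± 80.9 at day 6 (mean ± SD of 3 libraries). The fold change of -1.84 ± 0.50 at day 6 against day 0 was past the threshold, but not without day 0 replicate 3 (-1.79), day 6 replicate 2 (-1.60) or day 6 replicate 3 (-1.68). Values of -1.34 ± 0.49 for day 3 against day 0 and -0.50 ± 0.49 for day 6 against day 3 were not past it (edgeR adjusted p = 1 for day 6 against day 3).

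Of the Cep192 circles, 3 passed the filter. Exons 11 to 12 had 108, 43 and 63 reads at day 0, 53, 23 and 21 at day 3 and 25, 12 and 14 at day 6, a mean of 251 ± 85.7, 104 ± 58.0 and 64.7 ± 41.9 CPM. Exons 28 to 30 had 21, 24 and 26 reads at day 0, 28, 11 and 39 at day 3 and 8, 10 and 33 at day 6, a mean of 87.2 ± 19.5, 80.9 ± 38.7 and 51.5 ± 23.1 CPM, and the 3 days overlapped. Exons 42 to 45 had 16, 31 and 46 reads at day 0, 0 in each day 3 library and 17, 0 and 0 at day 6. None of the 3 was called in any comparison. Exons 11 to 12 gave 46.4 ± 16.9% of Cep192 reads at day 0, 51.7 ± 20.1% at day 3 and 44.8 ± 13.2% at day 6. Between day 6 and day 3 this share differed by -6.91 points (two-sided exact permutation p = 0.6, adjusted p = 0.975 over the 13 share tests run). Beyond this share, whether the circles differed from one another was not tested.

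Haus6 (chr4:86578855-86612055, minus strand) had 89, 95 and 44 reads at day 0, 8, 5 and 13 at day 3 and 18, 10 and 27 at day 6. It had its lowest levels at day 3, with means of 269 ± 104 CPM at day 0, 27.3 ± 10.5 at day 3 and 64.7 ± 22.1 at day 6 (mean ± SD of 3 libraries), and all 3 day 6 libraries lay above all 3 day 3 libraries. The day 6 fold change against day 3 was 1.22 ± 0.91, not past the threshold (edgeR adjusted p = 0.960). Of all hosts tested, 5.3% were higher without overlap in that comparison and 5.9% lower. The fold change of -3.27 ± 0.96 at day 3 against day 0 was past the threshold, and -2.05 ± 0.90 at day 6 against day 0 was not. The day 3 call was lost with no filter, with the replicate number as a block and when any 1 of the 6 libraries of days 0 and 3 was left out, with values of -3.59 to -2.98.

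The pair of Haus6 circles with the most reads at day 0 was not listed later. Exons 5 to 9 had 27, 22 and 14 reads and exons 5 to 8 had 18, 29 and 6 reads at day 0, and both had 0 in all 6 later libraries. Exons 5 to 9 gave 0% of Haus6 reads in each day 6 library, against 28.4 ± 4.63% at day 0 (difference of -28.4 points). All reads of this circle were at day 0. The day 6 reads came from exons 11 to 15 (23, 0 and 11 reads at day 0, 0, 0 and 3 at day 3, 18, 0 and 0 at day 6), exons 6 to 8 (0, 9 and 0 at day 0, 0, 0 and 10 at day 3, 0, 10 and 0 at day 6) and exons 4 to 7 (8, 7 and 0 at day 0, 8, 0 and 0 at day 3, 0, 0 and 27 at day 6). Each day 6 library thus held reads of 1 Haus6 circle, and it was not the same circle in any pair of them.

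Lmnb1 (chr18:56707813-56753424, plus strand) had 168, 147 and 127 reads at day 0, 86, 29 and 70 at day 3 and 0, 12 and 70 at day 6. The day 6 reads came mostly from replicate 3, and the ranges of CPM at days 3 and 6 overlapped. Mean levels were 521 ± 51.5 CPM at day 0, 196 ± 89.4 at day 3 and 72.4 ± 84.6 at day 6 (mean ± SD of 3 libraries). Fold changes were -2.77 ± 0.69 at day 6 against day 0, past the threshold, and -1.41 ± 0.65 at day 3 against day 0 and -1.37 ± 0.67 at day 6 against day 3, which were not (edgeR adjusted p = 0.736 for day 6 against day 3). Without day 6 replicate 3 the day 6 value against day 0 was -4.30.

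The Lmnb1 circle of exons 2 to 5 (580 nt) had 135, 77 and 56 reads at day 0, 24, 22 and 32 at day 3 and 0, 0 and 42 at day 6. Exons 6 to 8 (552 nt) had 16, 25 and 21 reads at day 0, 45, 7 and 24 at day 3 and 0, 12 and 28 at day 6, and its means of 76.7 ± 24, 79.8 ± 60.5 and 38.3 ± 34.3 CPM overlapped on all days. Exons 3 to 8 had 4, 21 and 31 reads at day 0, 14 in day 3 replicate 3 and none elsewhere. None was called.

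**Figure D4:**
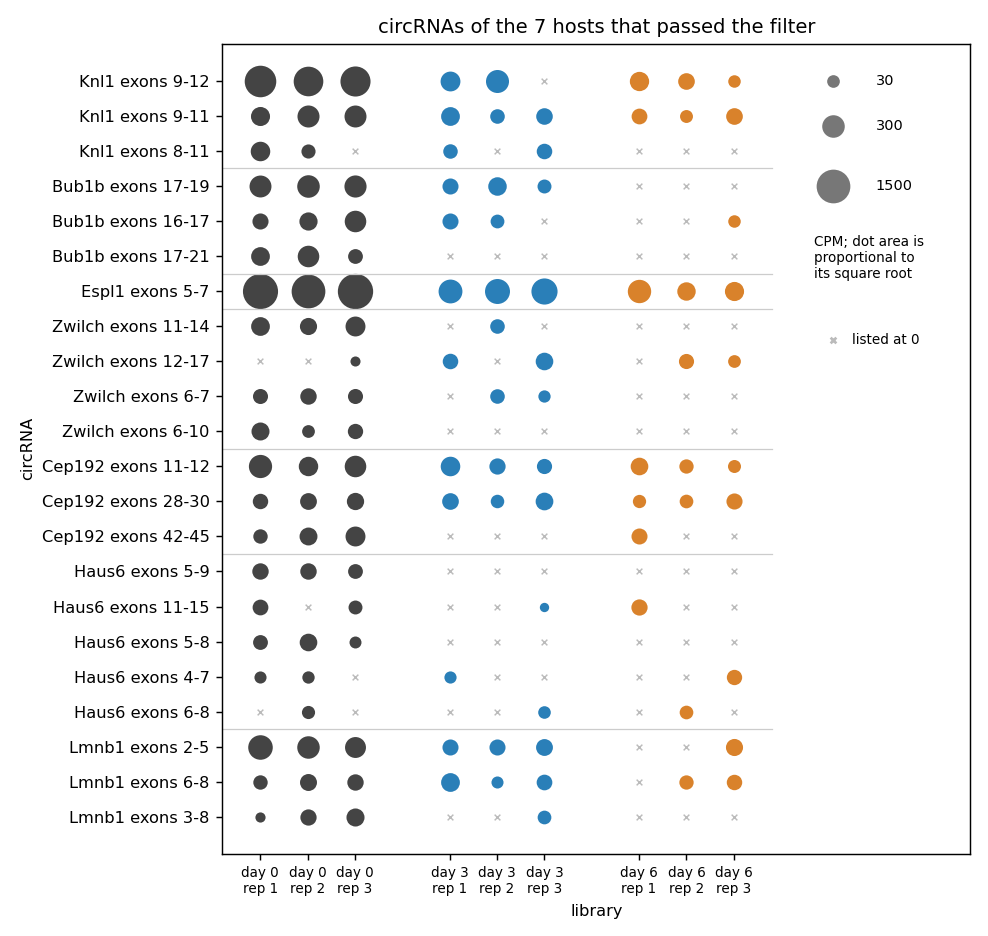
Levels of the 22 circRNAs of the 7 hosts that passed the filter on low counts, per library, in CPM. Dot area is proportional to the square root of the level and crosses are values listed at 0. Most crosses lie in the day 3 and day 6 columns, and Zwilch exons 12 to 17 is the row with crosses in 2 of the 3 day 0 libraries and dots in 2 libraries of each later day.

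Of the 67 circRNAs, 22 passed the filter on low counts with 6049 of the 6608 reads, and the other 45 had 2 to 52 reads each. Of the 22, 2 were called lower at day 3 against day 0 (Knl1 exons 9 to 12 and Espl1 exons 5 to 7), where 0.27% of all circRNAs tested were. At day 6 against day 0, 3 were called lower, the same pair and Bub1b exons 17 to 19, against 0.515% of all circRNAs tested. Without overlap, 13 were lower at day 3 and 14 at day 6 than at day 0, where 6.43% and 7.81% of all circRNAs tested were, and 2 were lower at day 6 than at day 3, where 5.36% were. As the filter keeps a circRNA with reads on a single day and the hosts were chosen for high day 0 levels, nothing is read from these shares.

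Libraries listed 28, 32 and 37 of the 67 circRNAs at day 0, 18, 17 and 16 at day 3 and 8, 10 and 11 at day 6, so the days did not overlap. Of the whole table they listed 9863, 7458 and 11119 at day 0, 9805, 9833 and 9591 at day 3 and 7363, 8251 and 10780 at day 6, which overlapped. As the hosts were chosen for high day 0 reads, nothing is read from this difference. Counted by day, 57, 31 and 17 of them were listed at days 0, 3 and 6. On day 0 alone 32 were listed (47.8%, against 24.9% of the whole table), and 27 of these were in a single library. On day 3 alone 8 were listed (11.9%, against 22% of the whole table) and on day 6 alone 2 (2.99%, against 19.2%). On all 3 days 13 were listed (19.4%, against 16.9%), and these held 4953 reads. The 4 that were listed in all 9 libraries were Knl1 exons 9 to 11, Espl1 exons 5 to 7 and Cep192 exons 11 to 12 and 28 to 30. A single library held 37 of the 67 (55.2%, against 61.4% of the rest of the table), with 5.19% of the reads.

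**Figure D5:**
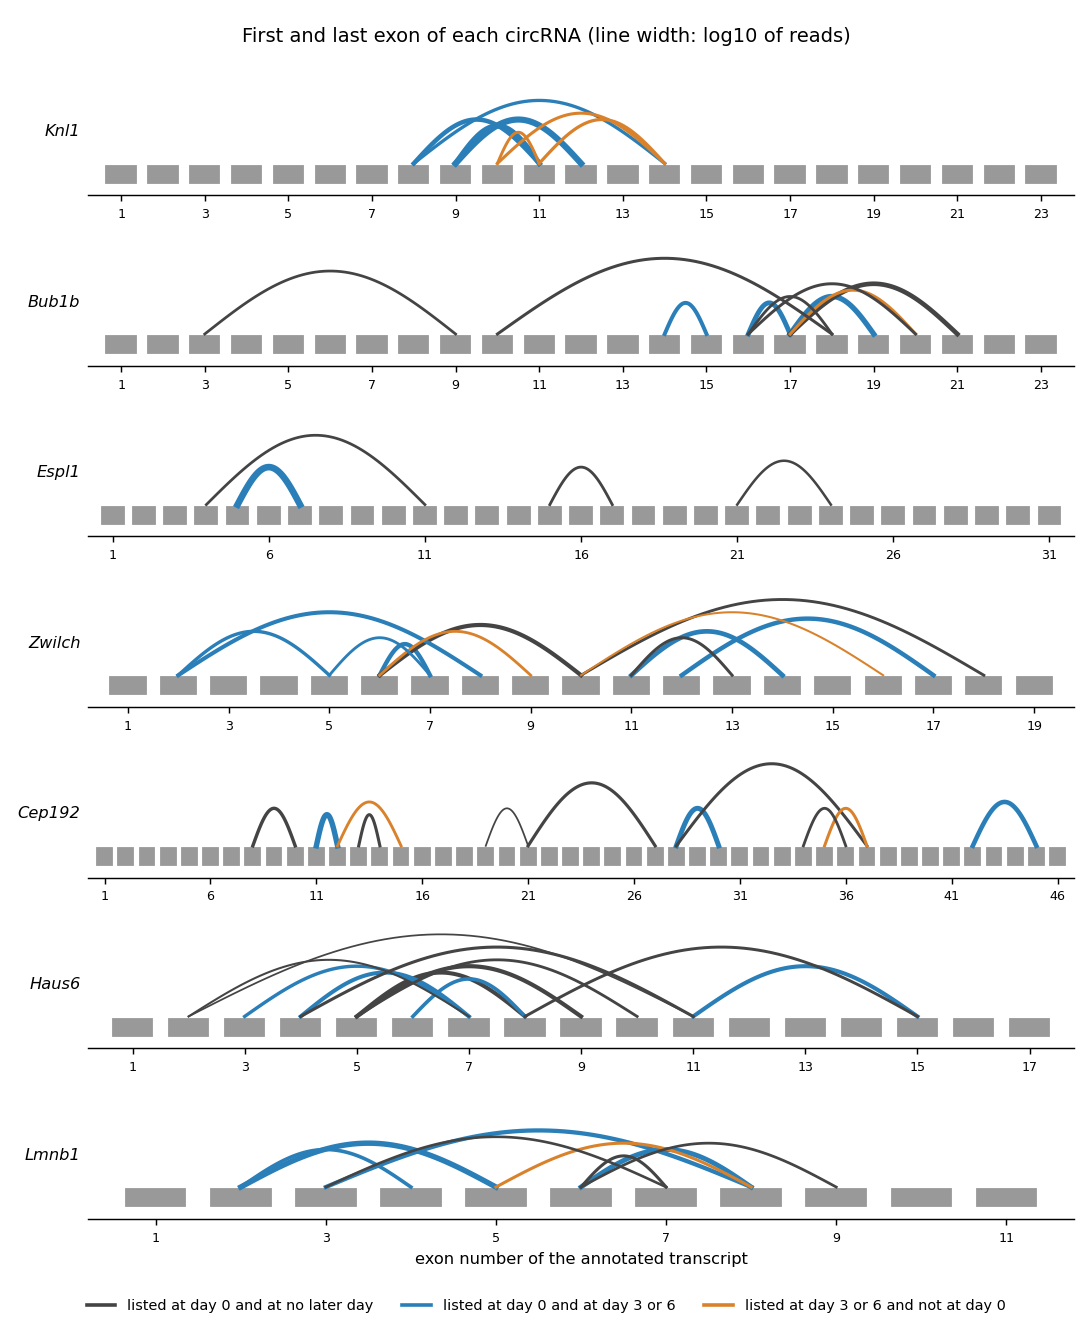
The 61 circRNAs with both ends at exon edges, drawn as arcs from their first to their last exon along the exons of each host, which are numbered from the 5′ end. Line width grows with reads over the 9 libraries. No arc touches the first or the last exon of its gene, and the widest arcs are Espl1 exons 5 to 7 and Knl1 exons 9 to 12.

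Of the 67 circRNAs, 66 were deposited as exonic, and 61 had both ends at exon edges of 1 annotated transcript. These 61 held 2 to 10 exons (median 4) and had spliced lengths of 215 to 1511 nt (median 505), taken from the annotated exons between their ends, since splicing inside the circles is not in the table. None held the first or the last exon of its host, and 6 began at exon 2. The exons were wholly coding in 60, and in 16 of these the length was a multiple of 3, 6 of which were Lmnb1 circles. The genomic span had a median of 5394 bp, against 9778.5 bp in the rest of the table. A circBase identifier was given for 5 of the 67 (7.46%, against 2.71% of the rest), and these 5 held 52.8% of the members' reads.

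Other hosts of the same machinery were read from lists that leave out the 7 genes. Of 40 other kinetochore genes 13 were tested, and 0 were called in any comparison, with a median log2 fold change of -0.51 at day 3 and -1.04 at day 6 against day 0. Of 13 other genes of the spindle checkpoint and chromosomal passenger complex 4 were tested, with medians of -1.33 at day 3 and -2.13 at day 6. Of these, Mad1l1, which encodes the checkpoint protein MAD1, was called at day 6, with 697 ± 165 CPM at day 6 and 1494 ± 103 at day 0 (-1.10 ± 0.25, edgeR adjusted p = 0.00362). Of 34 genes of the anaphase promoting complex and cohesin, 21 were tested and 0 called, with medians of -0.18 and -0.69. The 25 tested centrosome hosts had medians of -0.34 and -0.44. Among them 2 were called lower at day 6, namely Ckap5, a microtubule polymerase, with 495 ± 147 CPM at day 6 and 1038 ± 260 at day 0 (-1.07 ± 0.31, adjusted p = 0.0288), and Cep128, a centriole protein, with 129 ± 110 CPM and 584 ± 95.6 on those days (-2.18 ± 0.52, adjusted p = 0.00608). Neither the 7 tested hosts of augmin and the γ-tubulin complexes (medians -0.47 and -0.74) nor the 16 of the nuclear lamina and envelope (-0.69 and -0.76) had a call. The medians over all hosts were -0.02 and -0.13, and 1.79% of all hosts tested were called lower at day 6 against day 0. The lists were drawn up with earlier results of these data known, so their calls and p-values are a description.

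The hosts most like the 7 in pattern were found by the Pearson correlation of log2(CPM + 2) over the 9 libraries with the summed reads of the 7, among 4128 other hosts tested. They were Diaph3 (r = 0.970), a formin, Cit (0.946), the citron kinase of cytokinesis, Mta1 (0.945), a subunit of a chromatin remodelling complex, Spag5 (0.943), a protein of the mitotic spindle, and Ltbp1 (0.934), a protein of the extracellular matrix. The 9 libraries fall into 3 days, so these values mostly restate the order of the days and are a description. Diaph3 averaged 2284 ± 569, 558 ± 142 and 351 ± 179 CPM and Ltbp1 3152 ± 198, 1350 ± 340 and 1171 ± 212 CPM at days 0, 3 and 6 (SD, n = 3 each).

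Promoters of the 3 hosts that were called lower at both later days are shown because genes of mitosis often carry the cell cycle genes homology region (CHR, searched as TTTGAA and TTCGAA) and CCAAT boxes (CCAAT). The sequences are from RefSeq on GRCm38.p6, 250 bases before and 50 after the RefSeq start, 5′ to 3′ on the strand of the gene, with matches on either strand in capitals.
Knl1, chr2:119046869-119047168, plus strand: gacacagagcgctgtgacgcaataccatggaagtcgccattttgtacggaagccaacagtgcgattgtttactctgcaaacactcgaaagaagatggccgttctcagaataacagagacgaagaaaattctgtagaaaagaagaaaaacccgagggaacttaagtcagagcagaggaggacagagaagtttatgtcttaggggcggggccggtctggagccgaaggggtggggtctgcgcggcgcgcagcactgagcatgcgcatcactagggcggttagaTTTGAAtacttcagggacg
Bub1b, chr2:118597961-118598260, plus strand: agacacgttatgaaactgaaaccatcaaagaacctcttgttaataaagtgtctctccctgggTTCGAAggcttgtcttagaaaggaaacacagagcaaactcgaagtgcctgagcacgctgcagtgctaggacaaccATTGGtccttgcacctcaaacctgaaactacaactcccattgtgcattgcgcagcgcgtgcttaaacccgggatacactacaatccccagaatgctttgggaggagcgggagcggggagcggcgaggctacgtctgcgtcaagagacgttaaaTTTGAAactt
Espl1, chr15:102296043-102296342, plus strand: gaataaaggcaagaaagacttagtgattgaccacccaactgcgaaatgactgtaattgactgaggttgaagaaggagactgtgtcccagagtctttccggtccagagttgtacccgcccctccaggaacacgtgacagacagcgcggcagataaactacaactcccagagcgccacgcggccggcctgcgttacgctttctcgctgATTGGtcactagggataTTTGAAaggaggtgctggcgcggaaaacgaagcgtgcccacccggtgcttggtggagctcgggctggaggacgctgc
Positions are those of the first matching base from the RefSeq start, which for Espl1 lies downstream of the gene start given above. The promoters of Knl1, Bub1b, Espl1 and Haus6 were searched, and those of Zwilch, Cep192 and Lmnb1 were not analysed here. Knl1 had TTTGAA at 32. Bub1b had TTTGAA at 41, TTCGAA at -188 and a CCAAT box on the opposite strand (ATTGG) at -113. Espl1 had TTTGAA at -27 and a CCAAT box on the opposite strand at -44. Haus6 had no CHR match in this window and a CCAAT box on the opposite strand at -141. Of 32851 promoters of the same length, 17.9% held TTTGAA, 1.56% TTCGAA, 19.2% either of them and 37.4% CCAAT. Among the 4 searched, 3 held a CHR match and 3 a CCAAT box. A match is a description of these letters, and no binding was measured.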

How the data were processed

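Back-splice reads per circRNA were measured in 9 libraries of C2C12 cells, and the deposited counts are whole, unscaled reads in a single table of the authors. BWA and the build GRCm38.p4 (mm10) are named in the submitters' processing notes; for the circRNA caller and its filters, the entry is not given in the sources used here. Symbols, gene positions and exons are from GENCODE M21 (GRCm38), and 86.7% of starts and 86.8% of ends in the table lay at its exon edges.

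Counts were fitted per circRNA, and summed per host, with edgeR 4.0.16 in R 4.3.3: TMM factors, filterByExpr (minimum count 5, minimum total 15), the quasi-likelihood F-test on the means of the 3 days with all 9 libraries, no block, and Benjamini-Hochberg adjustment (threshold 0.05). Of 37751 circRNAs 8153 passed the filter, and of 6943 hosts 4135. Intergenic circRNAs, 0.927% of reads, entered no host. CPM relate the reads to the TMM-adjusted total of each library. The standard error of a log2 fold change (prior count 0.125) is approximate, from the absolute fold change and the square root of the F statistic, by which it is divided. Where all libraries of a day were at 0, no fold is given. Reads carry no molecular identifiers and are not independent molecules. The scripts were tested on simulated counts.

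Shares of a host's reads on its circle with the most reads were compared by an exact permutation test, two-sided, for hosts with at least 10 reads in each library; those against day 0 were run but are given without p-values, since the hosts were chosen on these days. Tried as alternatives were other scalings, other filters, DESeq2 1.42.0, a replicate block, fits of only 2 groups and leaving out each library. The members and the gene lists were chosen with earlier results of these data known. Named were all 7 hosts, the circRNAs that passed the filter and the 5 hosts most alike in pattern. Of the lists of the same machinery, called hosts were named (at most 5 per list). The marker lists were given as sums, with Ttn named because most of the muscle sum came from it.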

Additional observations from a re-analysis of the deposited data

How the results depend on the processing

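Directions of the 7 hosts against day 0 were kept under every alternative tried. DESeq2 called 286 hosts at day 3 and 460 at day 6 against day 0 and 19 at day 6 against day 3, where edgeR called 163, 233 and 3. For circRNAs DESeq2 called 272, 466 and 20, against 129, 162 and 5. It called 7 circRNAs of the 7 hosts at day 6 against day 0, where edgeR called 3, and past its threshold were also Zwilch (-1.84) and Cep192 (-1.45) at day 3 and Haus6 (-2.15) at day 6. In fits of only 2 groups, 139 hosts were called at day 6 against day 0 and 1 against day 3, and Zwilch (-3.46) and Lmnb1 (-2.80) were not called at day 6. For circRNAs these fits gave 30 calls at day 3 and 70 at day 6 against day 0 and 0 at day 6 against day 3, with 1 and 0 circRNAs of the 7 hosts at day 3 against day 0 and day 6 against day 3. With no filter, 6 hosts and 9 circRNAs were called at day 6 against day 3, among them 1 of the 7 hosts, and with a minimum count of 10 there was 1 circRNA of the 7 hosts at day 3. Counting only circRNAs listed in at least 2 libraries, the numbers listed per library differed from day 0 by -9 at day 3 and -14.3 at day 6, and between day 6 and day 3 by -5.33, where all circRNAs gave -15.3, -22.7 and -7.33. Deviations of same-numbered libraries from their day's mean did not go together (r = -0.03 to -0.001 over hosts), so the numbers are not taken as pairs; with the replicate number as a block, 188, 259 and 4 hosts were called, with 3, 6 and 1 of the 7.

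Leaving out each library in turn, 2 to 4 of the 7 hosts were called at day 3 against day 0 (2 if day 0 replicate 2, day 0 replicate 3 or day 3 replicate 3 was missing), 5 to 6 at day 6 against day 0 and 0 to 1 at day 6 against day 3. For all hosts it was 131 to 195, 185 to 263 and 2 to 8, for all circRNAs 98 to 166, 143 to 197 and 5 to 8, and for those of the 7 hosts 2 to 3, 3 to 6 (6 without day 3 replicate 3) and 1 to 2. The fold change of Knl1 exons 9 to 12 at day 6 against day 3 ranged from -1.52 to 0.010. Shares on the main circle changed sign or came to 0 in 13 such settings, in percentage points: Knl1 at day 6 against day 3 (-16.0 to 21.9), Espl1 at day 3 against day 0 (-1.13 to 1.44) and day 6 against day 3 (0 to 2.57), Cep192 in the 3 comparisons (-2.70 to 16.5, -9.13 to 7.51 and -18.2 to 1.07) and Lmnb1 at day 3 against day 0 (-22.1 to 1.84). The cause of these changes was not tested. In the edgeR test 22.7% of called hosts were lower at day 3 and 31.8% at day 6 with TMM factors. The shares were 32.9% and 42.4% without TMM factors and 31.0% and 38.8% with DESeq2 size factors. With the DESeq2 test, which made more calls, they were 40.9% and 46.5%. Zeros were frequent even where the other libraries of a day gave an expectation of 10 to 20 reads, and their cause was not tested. A circRNA listed at 0 on a day therefore cannot be taken as absent from it.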
